A study of Mus musculus with 60 samples.

Results

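The levels of 9 feedback inhibitors of ERK signaling were followed in mouse cortical cultures treated with BDNF, namely the MAP kinase phosphatase genes Dusp4, Dusp5 and Dusp6, the Sprouty genes Spry1, Spry2 and Spry4, and the Sprouty-related genes Spred1, Spred2 and Spred3. These 9 genes were chosen by name, for what their proteins do, from the 39756 genes of the deposited expression table, and all 9 passed the filter, a mean level of 1 TPM or more, that left 14250 genes to test (TPM counts transcripts relative to all transcripts of a library, after scaling to transcript length). With BDNF, 8 of the 9 were higher when averaged over the 6 pairs of groups that differed only in BDNF, and the calls at single days were at DIV3, the third day in vitro. Calls at DIV10 under paxillin siRNA came only with other settings, given with the DIV10 values. Spry1 was the member with no detectable response.

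The 48 libraries came from wild-type (WT) mouse cerebral cortex. Of these, 46 were from primary neuron cultures and 2 carried the label E15. The labels give E18 embryos for all 48 libraries, which conflicts with the label E15. The study's paper describes the mouse cultures as E15 and treats E15 as their starting stage. The embryonic age at the start of culture is therefore not settled here, and E15 was kept as its own group. Cultures received scrambled siRNA (SC) or paxillin siRNA (PXN), and some also received BDNF (20 ng/ml). The labels place both treatments at DIV2, so the day in vitro and the time since treatment cannot be told apart. RNA was taken at DIV3, DIV5 or DIV10. SC cultures without BDNF gave 3, 4 and 3 libraries at these days and SC cultures with BDNF gave 3, 4 and 3, PXN cultures without BDNF gave 5, 6 and 4 and PXN cultures with BDNF gave 4, 5 and 2, and 2 libraries were labelled E15. A further 12 libraries of hippocampus in the series were not used here. The labels number the libraries of a group, without saying that each was a separate culture, so p-values measure the spread between these libraries, which may be technical in part.

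BDNF, a neurotrophin, activates the receptor TrkB, and TrkB passes the signal through Ras, Raf and MEK to the kinases ERK1 and ERK2, which enter the nucleus and switch on immediate-early genes. Cells limit the signal by making inhibitors in response to it. DUSP4 and DUSP5 are phosphatases of the nucleus and DUSP6 of the cytoplasm, and each removes the activating phosphates from ERK. Sprouty proteins act upstream, between the receptor and Raf, and SPRED proteins bring the GTPase-activating protein neurofibromin to Ras. In cells stimulated by growth factors, transcripts of many of these inhibitors are used as readouts of ERK activity.

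Promoters were available for 7 of the 9 members, and those of Dusp4 and Spry4 were not used here. Those of 3 genes are shown because they belong to the member with the largest BDNF difference at DIV3 under both siRNAs (Dusp5), the member with the highest level (Dusp6), and the member with no detectable response (Spry1). The stretches are the 250 bases before the start of each gene in RefSeq, build GRCm38.p6, all on the plus strand, at chr19:53528895-53529144 for Dusp5, chr10:99262981-99263230 for Dusp6 and chr3:37639697-37639946 for Spry1. Capitals mark matches to 6 motifs that are bound by factors downstream of ERK or cAMP.
Dusp5: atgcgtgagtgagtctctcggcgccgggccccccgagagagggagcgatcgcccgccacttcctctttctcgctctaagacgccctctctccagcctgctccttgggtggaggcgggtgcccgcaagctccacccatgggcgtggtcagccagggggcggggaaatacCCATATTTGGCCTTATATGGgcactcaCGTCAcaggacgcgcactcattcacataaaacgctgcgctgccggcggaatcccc
Dusp6: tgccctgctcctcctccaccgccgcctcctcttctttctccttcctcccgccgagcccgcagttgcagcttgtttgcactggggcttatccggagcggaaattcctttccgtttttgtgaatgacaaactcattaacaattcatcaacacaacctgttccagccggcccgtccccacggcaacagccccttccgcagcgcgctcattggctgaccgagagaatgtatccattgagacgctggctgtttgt
Spry1: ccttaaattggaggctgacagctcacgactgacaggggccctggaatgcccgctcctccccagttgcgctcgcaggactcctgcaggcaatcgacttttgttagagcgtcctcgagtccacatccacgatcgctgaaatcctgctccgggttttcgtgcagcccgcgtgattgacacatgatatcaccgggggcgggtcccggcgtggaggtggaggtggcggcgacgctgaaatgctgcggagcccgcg

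The motifs were searched on both strands in windows of 300 bases, from 250 before to 50 after the start. For Spred3, on the minus strand, the start used lies inside the gene's span in RefSeq (chr7:29157783-29170070). Its 250 bases before that start are chr7:29168648-29168897. Dusp5 held a pair of adjacent CArG boxes, the sequence bound by serum response factor, from position -82 to -63 relative to the start. CArG boxes occurred in 425 of 27025 promoters (1.57%) and in no other member. Dusp5 also held the short core of the cAMP response element, TGACG or its complement CGTCA, from -55 to -51. Spred2 held the same core from -51 to -47, and 21% of all promoters held it. None of the 7 held the full cAMP response element TGACGTCA (1.88% of promoters, which contains the core), the AP-1 site TGANTCA (7.93%), the ETS site CCGGAAGT (4.0%) or the EGR site GCGNGGGCG (5.55%). A match is a description of the letters, and an absent match says only that they are not in this window.

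Each library summed to the same total of TPM, so sequencing depth and counting error cannot be read from the table. Pxn, the gene targeted by the PXN siRNA, was 9.01 ± 1.47 TPM (SD, n = 5) in the libraries labelled PXN against 10.2 ± 1.36 (n = 3) under SC at DIV3, 9.17 ± 0.541 (n = 6) against 15.5 ± 3.45 (n = 4) at DIV5, and 14.2 ± 3.14 (n = 4) against 12.9 ± 6.02 (n = 3) at DIV10. It was lower at DIV5 (log2 difference -0.67, adjusted p = 0.0186), and because it did not separate the labels at DIV3 or DIV10, the groups below are called by their labels. Neuronal markers were above 0 in every library, and glial markers were present as well. At DIV10, 4 libraries stood apart, SC number 3, SC with BDNF number 3, and PXN numbers 1 and 2. Their summed astrocyte markers were 930 to 1483 TPM against 2831 to 7424 in the other 8, and their oligodendrocyte-lineage markers were 249 to 1480 TPM against 3847 to 8508. Their neuronal sums were low too, at 448 to 1143 TPM against 1582 to 2695. So were their dividing-progenitor sums (478 to 725 against 977 to 1342 TPM) and microglial sums (28.2 to 45.0 against 59.0 to 178 TPM). At DIV5, the SC libraries numbered 3 stood apart as well, with summed astrocyte markers of 878 TPM without BDNF and 844 TPM with it, against 3680 to 7573 and 4073 to 6200 TPM in the other 3 of each group, and oligodendrocyte-lineage markers of 1680 and 1436 TPM against 3444 to 5552 and 4143 to 6011 TPM. The neuronal sums of these SC libraries numbered 3 at DIV5 were instead the highest of their groups, at 2382 TPM without BDNF and 2237 TPM with it. Results at DIV10 and DIV5 are therefore also given without these 4 and 2 libraries, a choice made after seeing the data. In bulk RNA, fewer cells of a type and less RNA per cell cannot be told apart.

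Before BDNF, the 9 genes spanned a wide range of levels. In SC cultures at DIV3 without BDNF the order of the means was Dusp6 at 116 ± 33.4 TPM (SD, n = 3), Spry2 at 77.5 ± 18.9, Spred3 at 70.4 ± 12.1, Dusp4 at 37.1 ± 6.25, Spry1 at 34.6 ± 3.71, Spred1 at 19.0 ± 0.937, Spry4 at 14.4 ± 1.51, Spred2 at 12.2 ± 1.89 and Dusp5 at 0.794 ± 0.188. The libraries of neighbours in this order overlapped for Dusp6 and Spry2, Spry2 and Spred3, Dusp4 and Spry1, and Spry4 and Spred2. They did not overlap for Spred3 and Dusp4, Spry1 and Spred1, Spred1 and Spry4, or Spred2 and Dusp5. Dusp5 was nearly silent without BDNF, while Dusp6 was the most abundant member.

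All 3 phosphatase genes rose with BDNF at DIV3 under both siRNAs. In SC cultures, Dusp5 was 0.75, 0.632 and 1.00 TPM without BDNF and 5.60, 4.23 and 14.9 TPM with it. In PXN cultures it was 0.503, 0.592, 1.24, 1.88 and 0.731 TPM without BDNF and 5.73, 8.85, 19.7 and 12.8 TPM with it. Every library with BDNF lay above every library without it in both, and the levels with BDNF spread widely. The difference on the log2(TPM + 1) scale was 2.19 ± 0.39 (SE, adjusted p = 0.000697) under SC, or 4.58-fold, and 2.61 ± 0.32 (adjusted p = 5.52e-07) under PXN, or 6.09-fold, and this scale understates the change of so low a gene.

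Dusp4, the other nuclear phosphatase gene, was 39.0, 30.2 and 42.3 TPM in SC cultures without BDNF and 231, 105 and 150 TPM with it. Under PXN it was 30.7, 36.7, 44.4, 31 and 27.8 TPM without BDNF and 155, 117, 90.0 and 127 TPM with it. The groups were clear of each other at both siRNAs, and the SC library numbered 1 was the highest with BDNF. The log2 difference was 2.04 ± 0.43 (SE, adjusted p = 0.00634), or 4.11-fold, under SC and 1.80 ± 0.35 (adjusted p = 0.00177), or 3.49-fold, under PXN.

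Dusp6, the cytoplasmic ERK phosphatase gene, was 89.1, 106 and 154 TPM in SC cultures without BDNF and 583, 289 and 788 TPM with it. Under PXN it was 108, 130, 161, 86.6 and 85.1 TPM without BDNF and 656, 477, 449 and 465 TPM with it. Here too the groups did not overlap, and Dusp6 with BDNF reached the highest level of any member in any library. The log2 difference was 2.16 ± 0.52 (SE, adjusted p = 0.0245), or 4.48-fold, under SC and 2.18 ± 0.43 (adjusted p = 0.00183), or 4.54-fold, under PXN.

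Spry2 and Spry4 were higher with BDNF at DIV3, and Spry1 was not. Spry4 was 13.1, 16.1 and 14 TPM in SC cultures without BDNF and 56.5, 37.9 and 58.9 TPM with it, and under PXN it was 7.23, 11.6, 14.3, 15.2 and 12.8 TPM without and 41.6, 36.7, 50.5 and 45.9 TPM with BDNF. Spry2 was 60.5, 74.1 and 97.8 TPM in SC cultures without BDNF and 163, 146 and 222 TPM with it, and under PXN it was 48.4, 61.3, 98.8, 91.0 and 70.4 TPM without and 137, 140, 203 and 158 TPM with BDNF. Neither gene's groups overlapped at either siRNA. The test passed under PXN only, with log2 differences of 1.78 ± 0.40 for Spry4 (SE, adjusted p = 0.00759) and 1.13 ± 0.26 for Spry2 (adjusted p = 0.0106). Under SC the differences were of like size and missed the threshold, at 1.74 ± 0.49 for Spry4 (adjusted p = 0.0627) and 1.19 ± 0.32 for Spry2 (adjusted p = 0.0523), and with a block for the number in the label both passed (adjusted p = 0.0208 and 0.0114).

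Spry1 stood between 31.3 and 38.6 TPM in the 3 SC libraries without BDNF and between 32.9 and 37.8 TPM in the 3 with it. Under PXN the ranges were 26.9 to 38.8 TPM and 31.6 to 41.0 TPM. The ranges overlapped nearly in full under SC. The log2 difference was 0.06 under SC (95% interval -0.35 to 0.47, adjusted p = 0.994) and 0.22 ± 0.17 (SE, adjusted p = 0.676) under PXN, and the SC interval stayed below 0.47 while Spry2 differed by 1.19 and Spry4 by 1.74 in the same libraries.

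The Spred genes split at DIV3. Spred3, which encodes a member of the family expressed largely in brain, was 59.8, 83.6 and 67.8 TPM in SC cultures without BDNF and 171, 222 and 183 TPM with it, and under PXN it was 40.6, 72.6, 70.7, 66.4 and 53.9 TPM without and 164, 210, 226 and 193 TPM with BDNF. The groups did not overlap. The log2 difference passed under PXN (1.71 ± 0.37 SE, adjusted p = 0.00512, 3.27-fold) and not under SC (1.44 ± 0.45, adjusted p = 0.119, and 0.0545 with the block).

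Spred1 passed under SC, where it was 19.1, 19.9 and 18 TPM without BDNF and 45.2, 29.7 and 45.7 TPM with it (log2 difference 1.02 ± 0.21 SE, adjusted p = 0.00572). Under PXN, Spred1 was 16.7, 20.1, 20.7, 20.9 and 28 TPM without BDNF and 31.1, 27.9, 27.2 and 29.9 TPM with it. There the library numbered 11 without BDNF reached into the range with BDNF, and the log2 difference was 0.45 ± 0.17 (adjusted p = 0.228). Spred2 had the smallest differences of the family, 0.61 ± 0.20 under SC (adjusted p = 0.149, and 0.0185 with the block) and 0.36 ± 0.16 under PXN (adjusted p = 0.341), although under PXN its libraries with BDNF, from 14.7 TPM up, lay just above those without, which ended at 14.6 TPM.

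At DIV3, 4 members were called higher under SC (Dusp4, Dusp5, Dusp6 and Spred1), where 1.03% of all genes tested were, and 6 under PXN (Dusp4, Dusp5, Dusp6, Spry2, Spry4 and Spred3), where 1.31% were. The median log2 difference of the 9 was 1.44 under SC and 1.71 under PXN, against -0.01 and -0.02 over all genes tested. Without overlap between the groups were 8 members under SC and 7 under PXN, against 10.8% and 6.69% of all genes. With the block for the number in the label, 7 members passed under SC, and the share of all genes with the block is not given here. The SC count rested on single libraries. It was 1 (Dusp5) without the SC library with BDNF numbered 1, where Dusp4 was 1.75 and Dusp6 2.07, 2 without the one numbered 3 (Dusp4 and Dusp5), and 2 without the SC library numbered 2 (Dusp5 and Spred1), and the Dusp6 call was also lost without the SC library numbered 1 (1.99). Under PXN, 2 members (Dusp5 and Spry4) were called without the libraries numbered 10 and 11, which exist for PXN alone, and the other 4 log2 differences were then 1.05 to 2.09. The Spry2 call was also lost without the PXN library with BDNF numbered 10 (1.0, adjusted p = 0.0782).

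No marker of another cell type was called with BDNF at DIV3, with 0 of 37 markers of 6 lists passing under either siRNA in the limma fit. The summed neuronal markers were 2430 to 3338 TPM under SC without BDNF and 2060 to 2211 TPM with it, and 2232 to 3168 and 1764 to 2154 TPM under PXN. Summed astrocyte markers were 203 to 670 TPM and 178 to 725 TPM under SC, and summed oligodendrocyte-lineage markers were 913 to 1769 TPM and 751 to 1510 TPM. Thus neuronal sums were lower with BDNF, without overlap, and the glial sums overlapped. The neuronal sum was mostly Tubb3, with means of 2601 TPM without BDNF and 1538 TPM with it under SC. Rbfox3 and Syn1 were also lower in mean. Map2 (142 and 248 TPM), Slc17a7 (93.6 and 213 TPM), Snap25, Syt1 and Gad1 were higher in mean. Under PXN the directions were the same except for Syt1, which was lower in mean. Microglial sums were at most 8.70 TPM at DIV3, and Cldn5 and Lum, of vascular and meningeal cells, were each at 0 in 1 library. The part of these shifts in the BDNF differences was not tested.

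**Figure D1:**
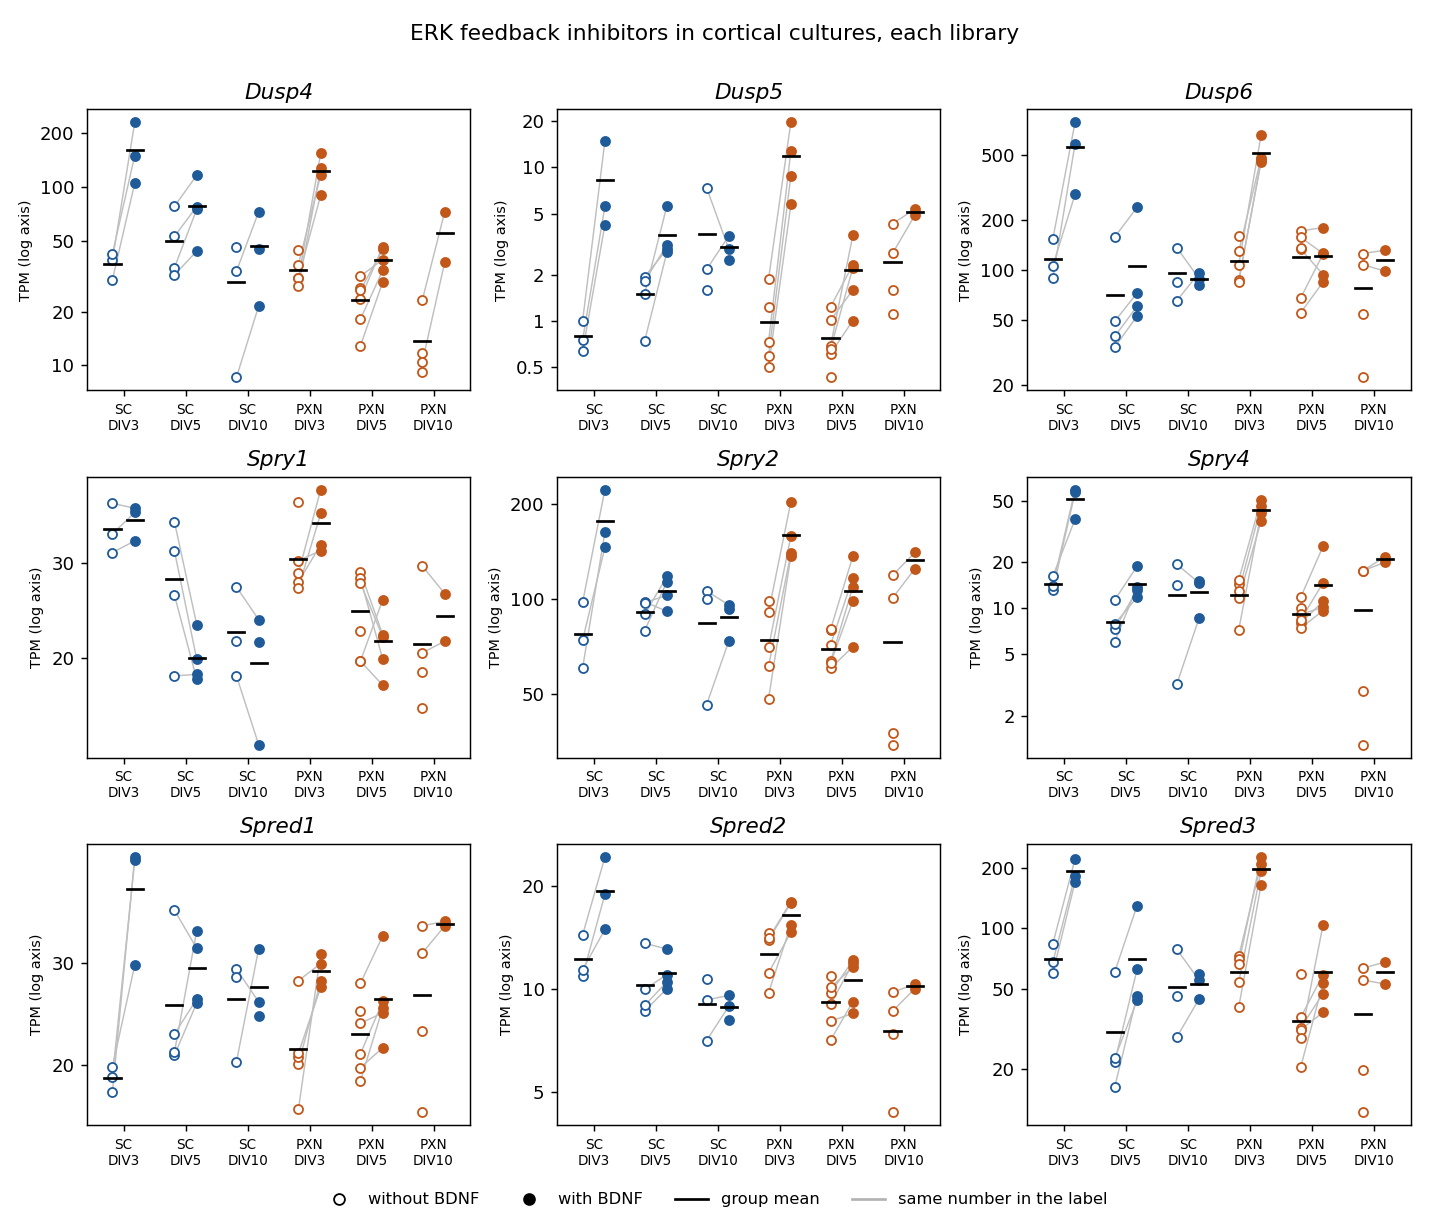
Level of each member in TPM (log axis) in every culture library by siRNA and day, with open points for libraries without BDNF, filled points for libraries with BDNF, bars for group means and gray lines joining libraries with the same number in the label. At DIV3 the filled points lie above the open ones for every gene except Spry1 and, under PXN, Spred1.

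At DIV5 the BDNF differences were smaller in value and no member passed the test. In SC cultures the log2 differences ran from -0.43 (Spry1) to 1.24 (Spred3) with a median of 0.59, against -0.01 over all genes, and 0 members were called by limma where 0.0491% of genes were. In PXN cultures they ran from -0.17 (Spry1) to 0.79 (Dusp5) with a median of 0.51, and 0 were called where 0.014% of genes were. At an unadjusted p under 0.05 there were 3 members (Dusp5, Spry1 and Spred3) and 1268 genes under SC and 4 members (Dusp4, Dusp5, Spry2 and Spred3) and 981 genes under PXN. Without both SC libraries numbered 3, the SC differences ran from -0.41 (Spry1) to 1.29 (Spred3) and 0 members were called.

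Several members kept 1 direction within the numbered pairs of libraries at DIV5. The SC pairs numbered 1 and 2 each joined libraries from different series of S numbers in the column headings, so BDNF and series cannot be told apart within them. Spred3 was 16.3, 21.7, 60.8 and 22.6 TPM in the SC libraries numbered 1 to 4 without BDNF and 46.2, 62.4, 130 and 43.9 TPM in those with BDNF. It was higher in 4 of 4 pairs, although the level of number 3 without BDNF lay above 2 of the libraries with it, and its log2 difference was 1.24 ± 0.39 (SE, adjusted p = 0.277). Dusp6 was 48.9, 39.6, 159 and 34.2 TPM without BDNF and 72.5, 60.3, 240 and 52.6 TPM with it. It too was higher in 4 of 4 pairs, while number 3, the library with low glial markers, was far above the rest in both groups, and the group difference was 0.59 (95% interval -0.33 to 1.51).

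Dusp5 and Spry4 were the 2 members whose SC groups did not overlap at DIV5, against 1.54% of all genes. Dusp5 was 1.5, 1.93, 0.738 and 1.81 TPM without BDNF and 5.61, 2.93, 2.80 and 3.13 TPM with it. Spry4 was 6.06, 7.33, 11.3 and 7.91 TPM without BDNF and 13.7, 13.1, 18.8 and 11.8 TPM with it. Both sets of values were close at their edges, and the log2 differences were 0.88 (adjusted p = 0.404) and 0.76 (adjusted p = 0.636). Dusp4 was 77.9, 35.3, 32.1 and 52.8 TPM without and 116, 75.1, 43.7 and 77.7 TPM with BDNF, higher in 4 of 4 pairs with overlapping groups. Spry1 went the other way in 3 of 4 pairs, from 35.7, 31.5, 26.1 and 18.5 TPM to 23.0, 19.9, 18.2 and 18.6 TPM, with a log2 difference of -0.43 (95% interval -0.79 to -0.08, adjusted p = 0.446).

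Under PXN at DIV5, every member's groups overlapped, where 0.519% of all genes had every library with BDNF above every library without. Dusp4 had a lowest, median and highest level of 12.8, 24.9 and 31.6 TPM in the 6 libraries without BDNF and was 39.2, 46.2, 34, 29.3 and 44.8 TPM in the 5 with BDNF. Only the library numbered 10 fell back into the range without BDNF, and the log2 difference was 0.75 (95% interval 0.10 to 1.39, adjusted p = 0.661). Dusp6 had a lowest and highest level of 55.1 and 173 TPM without BDNF and 84.5 and 181 TPM with it. Its ranges shared most of their span, with a log2 difference of 0.09 (95% interval -0.70 to 0.87). In the 5 pairs with the same number, 7 of the 9 members were higher in all 5, Dusp6 in 3 and Spry1 in 1. The share of all genes higher in all 5 is not given here.

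At DIV10 no member was called in either siRNA. In SC cultures 0 members and 0% of genes passed in the limma fit, with 0 members and 352 genes at an unadjusted p under 0.05, and the log2 differences ran from -0.20 (Spry1) to 0.76 (Dusp4) with a median of 0.08. Without both SC libraries numbered 3, Dusp4 was at 0.53 and the other 8 ran from -0.33 to -0.08, and 0 were called (adjusted p = 0.999 for each). Dusp4 was 33.6, 8.54 and 46.1 TPM without BDNF in the libraries numbered 1, 3 and 6 and 72.8, 45.0 and 21.5 TPM with it in those numbered 1, 2 and 3. It was higher in both pairs that share a number, by 1.09 and 1.24 on the log2 scale, while the groups overlapped. No member was without overlap under SC, against 1.87% of genes.

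In PXN cultures at DIV10 the differences were larger and came from unlike libraries. Spry4 was 1.29, 2.87, 17.5 and 17.5 TPM without BDNF in the libraries numbered 1, 2, 10 and 11 and 21.6 and 19.9 TPM with BDNF in those numbered 10 and 11. Spry2 was 37.5, 34.5, 118.96 and 101 TPM without and 140 and 125 TPM with BDNF. Numbers 1 and 2 were far below numbers 10 and 11 in both genes, and those 2 are among the 4 libraries with low glial, neuronal and progenitor markers. The log2 differences were 1.55 for Spry4 and 1.06 for Spry2 (adjusted p = 0.246 for each), and they were 0.23 and 0.27 without numbers 1 and 2.

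Dusp4 behaved otherwise. It was 11.7, 9.18, 10.4 and 23.3 TPM without BDNF and 37.8 and 72.4 TPM with it, so that all 4 libraries without BDNF were low. Its log2 difference was 1.95 (95% interval 1.03 to 2.88, adjusted p = 0.154), it was 1.68 without numbers 1 and 2, and it passed with the block for the number (2.07, adjusted p = 0.0133) and with no filter on low levels (adjusted p = 0.0329). In total 0 members were called by limma under PXN, where 0.014% of genes were, with 5 members and 2568 genes at an unadjusted p under 0.05 and a median of 0.92. Without overlap were 5 members (Dusp4, Dusp5, Spry2, Spry4 and Spred2) against 11% of genes. Within the pairs numbered 10 and 11, the log2 differences were 1.6 and 1.76 for Dusp4 and between -0.16 and 0.65 for the other 8 members. Leaving out the PXN library numbered 10 or 11 brought 3 calls (Dusp4, Spry2 and Spry4), with Dusp4 at 1.87 and 2.23. The share of all genes called in those fits is not given here.

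**Figure D2:**
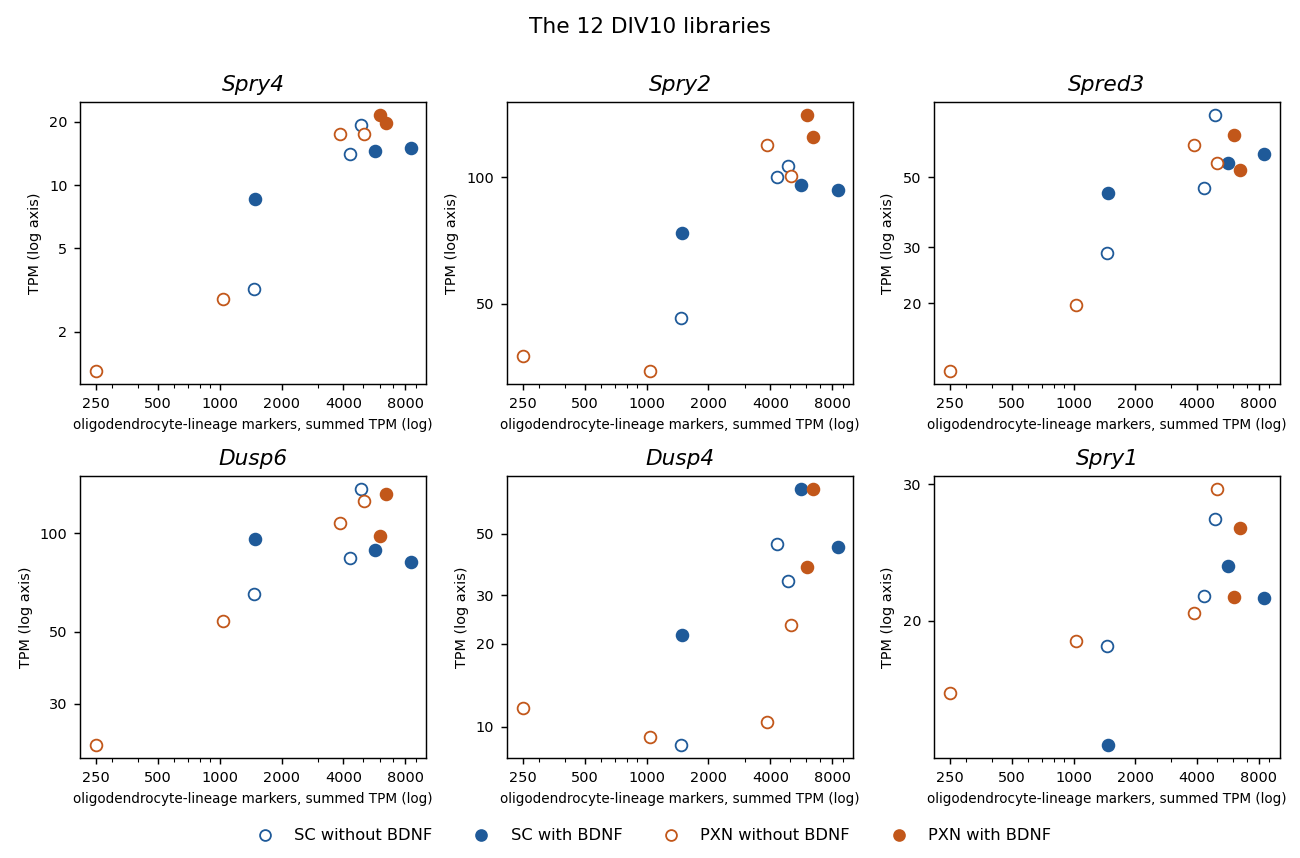
Level of 6 members in TPM (log axis) against the summed TPM of 8 oligodendrocyte-lineage markers (log axis) in the 12 DIV10 libraries, with color for the siRNA and filled points for BDNF. The 4 libraries with the lowest marker sums have the 4 lowest levels of Spry4, Spry2 and Spred3 but not of Dusp6, while Dusp4 without BDNF is low also in the PXN library numbered 10, where the marker sum is 3847 TPM.

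Averaged over the 6 pairs of groups, 8 of the 9 members rose, where 2.93% of all genes did, and the median of the members was 0.97 against 0.01. Among the phosphatases the mean log2 difference was 1.33 ± 0.16 for Dusp4 (SE, adjusted p = 4.25e-07), 1.23 ± 0.15 for Dusp5 (adjusted p = 2.69e-07) and 0.97 ± 0.20 for Dusp6 (adjusted p = 0.00127), which are 2.51-fold, 2.34-fold and 1.96-fold. Of the Sprouty genes, Spry4 rose by 1.11 ± 0.18 (adjusted p = 8.04e-05) and Spry2 by 0.72 ± 0.12 (adjusted p = 8.94e-05), and Spry1 was at -0.06 (95% interval -0.21 to 0.10, adjusted p = 0.724). Of the Spred genes, Spred3 rose by 1.04 ± 0.17 (adjusted p = 5.79e-05), Spred1 by 0.40 ± 0.08 (adjusted p = 0.000849) and Spred2 by 0.29 ± 0.08 (adjusted p = 0.0149). Without the 4 libraries of DIV10 that stood apart, 7 members passed and Spred2 did not (0.21, adjusted p = 0.0577). Of the 37 cell-type markers tested, 1 was lower in this mean, the neuronal gene Rbfox3 (-0.43, adjusted p = 0.00266), and its part in the members' values was not tested. This mean weights the 6 pairs equally, although the values of DIV3 were larger than those of DIV5 and DIV10 for most members.

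**Figure D3:**
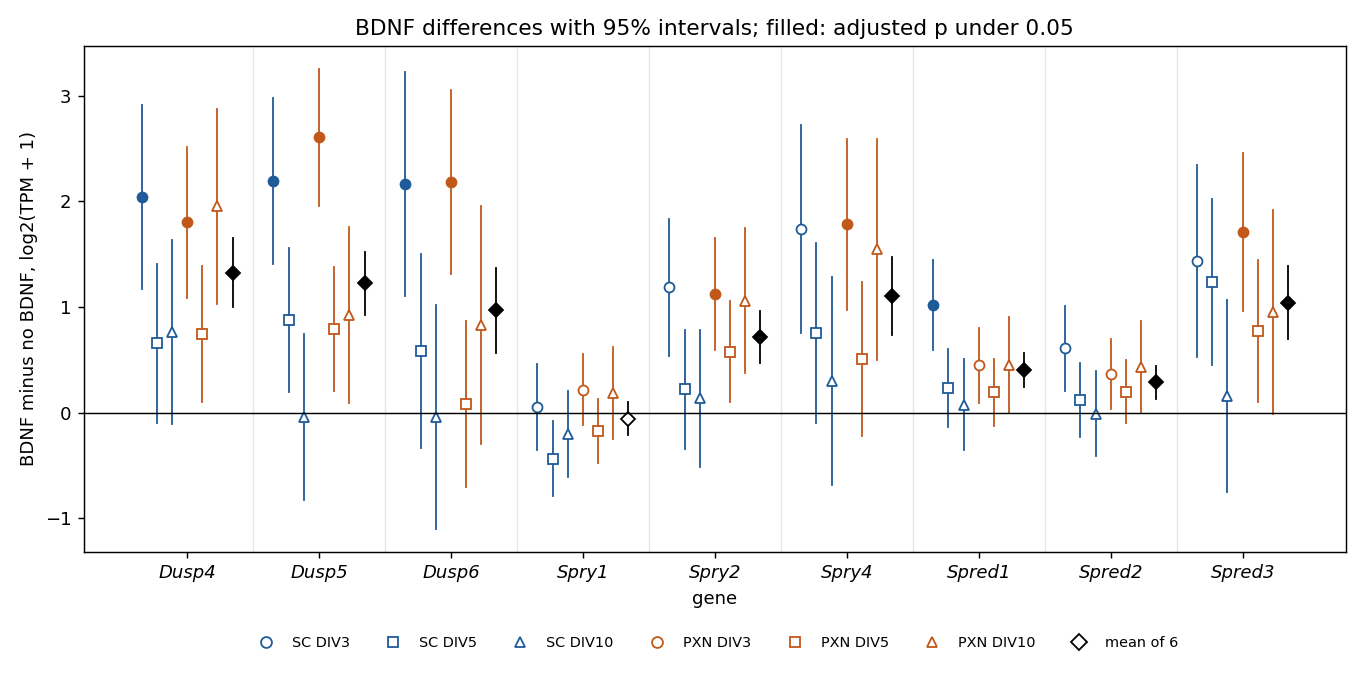
Difference with BDNF minus without BDNF on the log2(TPM + 1) scale for each member, by siRNA (color) and day (symbol) with 95% intervals, and the mean of the 6 differences as black diamonds. Filled symbols passed at an adjusted p under 0.05, and the intervals of Spry1 at DIV3 and of its mean include 0.

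The change of the BDNF difference with day was tested directly, in comparisons chosen after the values had been seen. Culture age and the time since BDNF was added changed together in these comparisons and cannot be told apart. From DIV3 to DIV5 all 9 differences moved down under SC (median -0.97) and under PXN (median -0.94). Spry1 changed sign in doing so, from 0.06 to -0.43 under SC and from 0.22 to -0.17 under PXN. In limma 0 members passed at either siRNA, against 0.0982% and 0.133% of genes, with 5 and 4 members and 1236 and 767 genes at an unadjusted p under 0.05. From DIV3 to DIV10 all 9 moved down under SC (median -1.27, 0 called against 0.112% of genes, 7 members and 448 genes unadjusted) and 6 of 9 under PXN (median -0.07, 0 called against 0.204%, 1 member and 2182 genes unadjusted). Over all genes the medians under SC and PXN were -0.01 and 0.005 from DIV3 to DIV5, and -0.01 and 0.09 from DIV3 to DIV10. These comparisons share the DIV3 libraries with the tests above. Dusp5 had the change nearest to the threshold, -1.81 ± 0.43 from DIV3 to DIV5 under PXN (SE, adjusted p = 0.0873), -2.23 from DIV3 to DIV10 under SC (adjusted p = 0.145) and -1.68 under PXN (adjusted p = 0.149). With the block for the number, whose pairing across days was not checked, these 3 were -1.80, -2.52 and -1.89 and passed (adjusted p = 0.0238, 0.0240 and 0.0445). The first also passed without the DIV3 PXN library with BDNF numbered 1 (-2.08, adjusted p = 0.0254) or the DIV5 one numbered 10 (-1.97, adjusted p = 0.0438), and the second without the DIV3 SC library with BDNF numbered 2 (-2.56, adjusted p = 0.0456). Without the 4 libraries that stood apart, Spry4 passed from DIV3 to DIV10 under SC (-1.88, adjusted p = 0.0302).

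The difference of the BDNF response between PXN and SC was not detectable for any member. At DIV3 the interaction (PXN minus SC) ran from -0.57 (Spred1) to 0.41 (Dusp5), at DIV5 from -0.50 to 0.36 and at DIV10 from 0.38 to 1.25. In the limma fit 0 members and 0% of genes were called at DIV3, 0% at DIV5 and 0% at DIV10, and at an unadjusted p under 0.05 there were 1 member (Spred1) with 162 genes, 0 members with 116 genes and 0 members with 885 genes. Thus Spred1, which passed under SC and not under PXN at DIV3, and Spry2, Spry4 and Spred3, which passed under PXN and not under SC, were not shown to differ between the siRNAs. At DIV10 all 9 interactions were above 0 (adjusted p from 0.694 to 0.728), and without the 4 libraries that stood apart they were 0.05 to 1.15. With all libraries their median was 0.87, against 0.10 over all genes. The median over all genes was 0.004 when levels were rescaled by median ratio size factors.

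Levels were next compared between PXN and SC at the same day. Without BDNF, 0 members were called at DIV3 (0% of genes, with 0 members and 21 genes unadjusted), 0 at DIV5 (6.18% of genes) and 0 at DIV10 (2.58%). With BDNF, 0 were called at DIV3 (0% of genes, with 1 member and 229 genes unadjusted), 0 at DIV5 (0.596%) and 0 at DIV10 (0.0211%). Dusp4 came closest. At DIV5 its 6 PXN libraries without BDNF, from 12.8 to 31.6 TPM, all lay below the 4 SC libraries, from 32.1 to 77.9 TPM. The log2 difference was -1.02 ± 0.34 (SE, adjusted p = 0.0626) without BDNF and -0.94 (adjusted p = 0.155) with it, and the block for the number gave -1.0 (adjusted p = 0.00959) and -0.96 (adjusted p = 0.0177). That block takes a number as the same in SC and PXN, which was not checked. Without the SC library numbered 3 at DIV5, Dusp4 was -1.2 (adjusted p = 0.0259) and Dusp6 passed in the other direction (1.43, adjusted p = 0.0177). That library, with low glial markers, held 159 TPM of Dusp6 against 34.2 to 48.9 in the other 3, and without the SC library with BDNF numbered 3 Dusp4 was -1.18 with BDNF (adjusted p = 0.0418). Without both, the calls were Dusp4 (adjusted p = 0.0200) and Dusp6 (adjusted p = 0.00725) without BDNF and Dusp4 (adjusted p = 0.0362) with it.

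At DIV5, cell-type markers also differed between the siRNAs. The summed astrocyte markers were 878 to 7573 TPM in SC libraries without BDNF and 600 to 1691 TPM in PXN libraries, and the oligodendrocyte-lineage sums were 1680 to 5552 and 1303 to 2332 TPM. Both glial sums overlapped between the siRNAs. The dividing-progenitor sums did not, at 1289 to 2347 TPM in the SC and 848 to 1133 TPM in the PXN libraries. The part of these markers in the Dusp4 values was not tested. At DIV10 without BDNF all 9 members were lower under PXN (median -0.34, against -0.06 over all genes), from -0.86 for Dusp4 (adjusted p = 0.178) to -0.01 for Dusp5. Without the 4 libraries that stood apart, Dusp4 was -1.28 (adjusted p = 0.157) and the other 8 were -0.11 to 0.19. Without the SC library numbered 3, Dusp4 was called (-1.55, adjusted p = 0.0115). Without the libraries numbered 10 and 11, 4 members were called lower under PXN (Spry2, Spry4, Spred3 and Dusp6), with log2 differences from -1.87 to -1.11, and those PXN libraries were numbers 1 and 2, both among the 4.

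In the fit of all libraries, Dusp4 fell from E15 to DIV10 and most other members did not change detectably. Dusp4 was 93.2 and 75.5 TPM in the E15 libraries, 33.6, 8.54 and 46.1 TPM in SC cultures at DIV10 and 11.7, 9.18, 10.4 and 23.3 TPM in PXN cultures, all without BDNF. Both E15 libraries lay above every DIV10 library. Dusp4 fell by 1.77 on the log2 scale under SC (SE 0.48, adjusted p = 0.00308) and by 2.62 under PXN (SE 0.46, adjusted p = 1.45e-05). Without the SC library numbered 3, at 8.54 TPM, the SC difference was -1.07 (adjusted p = 0.0528), and without all 4 libraries that stood apart the differences were -1.07 (adjusted p = 0.0323) and -2.35 (adjusted p = 3.25e-05). In a fit of the E15 and DIV10 SC libraries alone the SC call was lost (adjusted p = 0.107). Without the SC library numbered 1, Spry1 passed too (-0.66, adjusted p = 0.0308).

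Under SC, Dusp4 was the 1 member called lower over this span, where 23.6% of all genes were. Spry1 was 31.7 and 32.6 TPM at E15 and 27.1, 18.5 and 21.5 TPM under SC and 16.1, 18.8, 20.4 and 29.6 TPM under PXN at DIV10. The E15 values were above all of these, with log2 differences of -0.52 (adjusted p = 0.0572) and -0.61 (adjusted p = 0.0186). Spred2 was 11.7 and 10.4 TPM at E15 and 4.35, 7.40, 8.61 and 9.78 TPM under PXN, a log2 difference of -0.55 (adjusted p = 0.0324). Hence 3 members were called lower under PXN, where 26.7% of genes were. These 2 further calls rested on few libraries. Without the PXN library numbered 1, Spry1 was at -0.50 (adjusted p = 0.0663) and Spred2 at -0.34 (adjusted p = 0.167), leaving Dusp4 alone at -2.59, and leaving out either E15 library also left Dusp4 as the 1 call (-2.47 and -2.78). Without the 4 libraries Spry1 was at -0.37 (adjusted p = 0.168) and Spred2 at -0.24 (adjusted p = 0.354). Without the libraries numbered 10 and 11, more members were called under PXN, as counted in the closing section. The PXN libraries of DIV10 were then numbers 1 and 2, both among the 4 that stood apart.

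The other 6 members had E15 to DIV10 differences from -0.50 (Dusp6) to 0.61 (Dusp5) under SC and from -1.01 (Dusp6, adjusted p = 0.136) to 0.27 (Dusp5) under PXN. The median of the 9 was -0.04 under SC and -0.55 under PXN, against 0.01 and -0.06 over all genes. Markers of other cell types moved over the same span. Under SC, 6 of 7 astrocyte and 6 of 8 oligodendrocyte-lineage markers rose, and of all 37 markers tested 19 rose and 7 fell. Summed oligodendrocyte-lineage markers went from 321 to 535 TPM at E15 to 1462 to 4883 TPM at DIV10 under SC, and summed vascular and meningeal markers from 396 to 507 TPM to at most 8.38 TPM. Their part in the fall of Dusp4 was not tested.

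The steps in between were smaller. From E15 to DIV3 under SC, 0 members were called by limma, where 8.11% of genes were, with 1 member and 3516 genes at an unadjusted p under 0.05, and the values ran from -1.17 (Dusp4, adjusted p = 0.125) to 0.96 (Spred3). From DIV3 to DIV5, Spred3 was the 1 member called lower, where 1.48% of genes were. It was 59.8, 83.6 and 67.8 TPM at DIV3 and 16.3, 21.7, 60.8 and 22.6 TPM at DIV5, with only the DIV5 library numbered 3 in the range of DIV3. The log2 difference was -1.36 ± 0.42 (SE, adjusted p = 0.0325), the call was lost without any 1 of the other 6 libraries (-1.47 to -1.14, adjusted p from 0.0679 to 0.148), and without the DIV5 library numbered 3 both Spred3 (-1.75, adjusted p = 0.00296) and Dusp6 (-1.46, adjusted p = 0.0307) passed. Over this step 7 of 37 cell-type markers rose and 4 fell, and summed astrocyte markers went from 203 to 670 TPM to 878 to 7573 TPM. Their part in the Spred3 change was not tested. From DIV5 to DIV10, 0 members were called, where 24.9% of genes were, with 2 members and 5176 genes at an unadjusted p under 0.05 and values from -0.93 (Dusp4, adjusted p = 0.0872) to 0.81 (Spred3, adjusted p = 0.160). With the block for the number, whose pairing across days was not checked, Dusp4 (-1.46, adjusted p = 0.00274) and Dusp5 (1.01, adjusted p = 0.0407) passed. Without the 4 libraries of DIV10 that stood apart, Spred3 (1.16, adjusted p = 0.0225) and Spry4 (0.97, adjusted p = 0.00554) passed as higher at DIV10. Without the DIV10 library numbered 6, Dusp4 passed (-1.39, adjusted p = 0.0190), and without the DIV5 library numbered 3, Spred3 did (1.2, adjusted p = 0.0357). Without both DIV5 libraries numbered 3, Spred3 and Dusp6 (1.15, adjusted p = 0.0489) passed. The median over all genes moved from 0.11 to -0.02 for DIV3 to DIV5 and from -0.16 to -0.02 for DIV5 to DIV10 when the levels were rescaled by median ratio size factors.

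**Figure D4:**
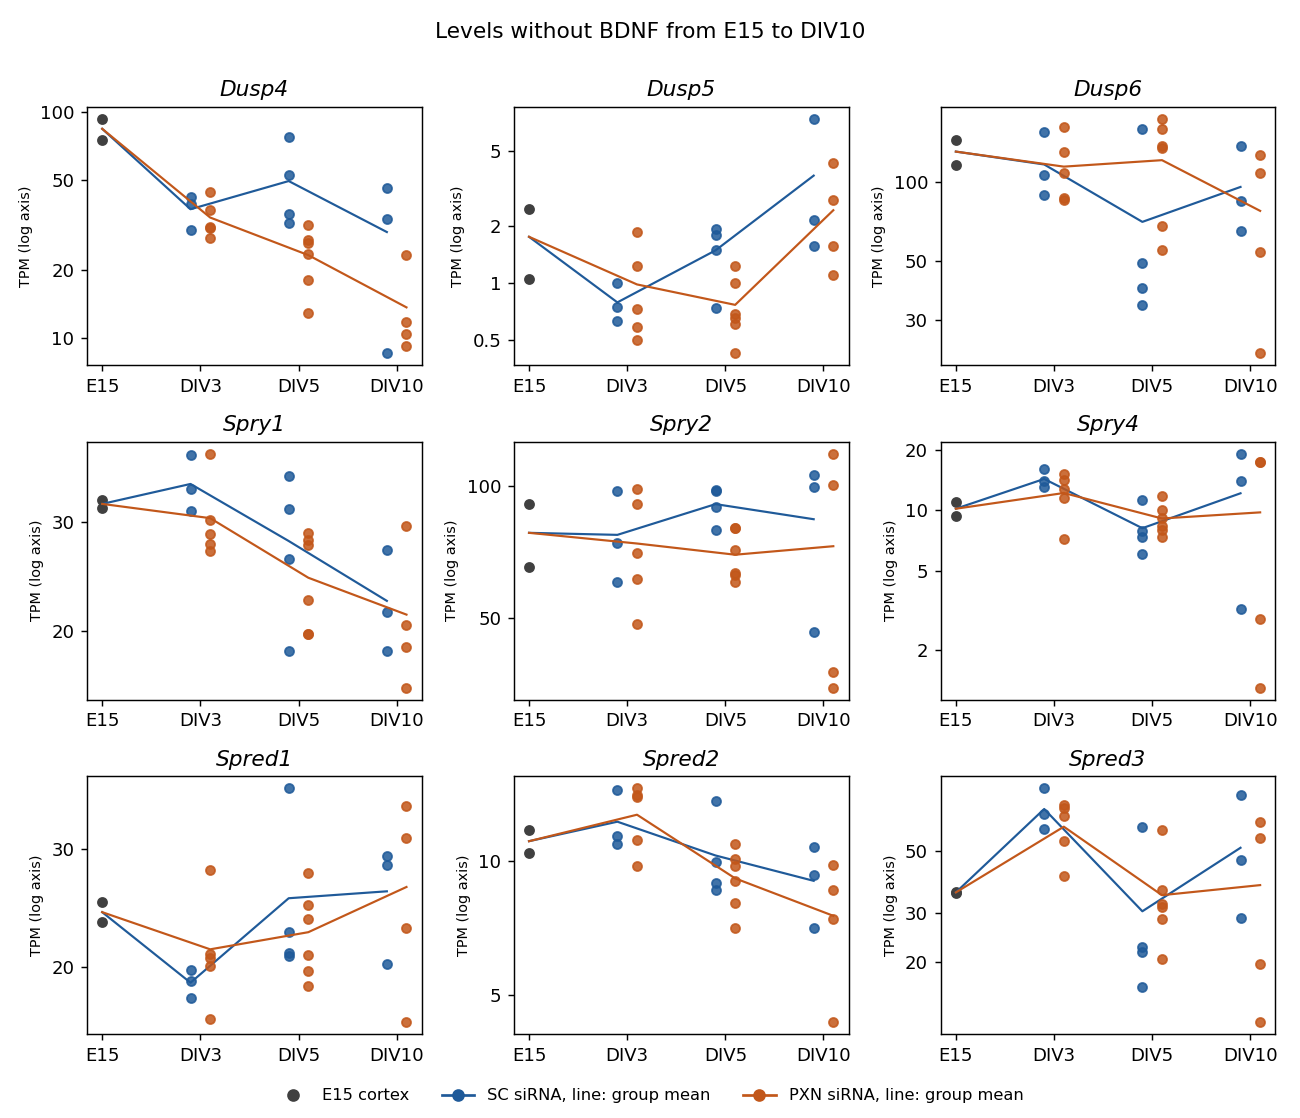
Level of each member in TPM (log axis) without BDNF at E15, DIV3, DIV5 and DIV10, with points for libraries, color for the siRNA and lines through group means, the E15 mean being shared. Dusp4 falls from E15 to DIV10 at both siRNAs, while the DIV10 libraries of Spry2, Spry4 and Spred1 span their E15 levels at both siRNAs.

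Other genes of the pathway were examined in lists chosen with earlier results known. Of 31 tested genes of the core pathway, from receptor to ERK and its kinases, 1 was higher with BDNF at DIV3 under SC (Rasa1, named after its values were seen), and in the mean over the 6 pairs 0 were higher and 3 were lower, where 3.12% of all genes were, among them Rps6ka2 (-0.25, adjusted p = 0.00268) and Rps6ka5 (-0.28, adjusted p = 0.00597). The median of this list was -0.04 in the mean. Of 9 other feedback inhibitors tested, 0 passed in limma in the mean over the 6 pairs, and of 8 other MAP kinase phosphatases 1 was higher (Dusp10, 0.56, adjusted p = 8.39e-06), with list medians of 0.06 and 0.06. Of 29 ERK-responsive and immediate-early genes, 10 were higher and 1 lower (Nr4a2, -0.57, adjusted p = 0.0215), with a median of 0.36. The 4 with the largest rise were Vgf (2.40), the synaptic gene Arc (2.12), Egr2 (1.78) and Egr1 (1.26). Of 15 tested genes of FGF and EGF ligands and receptors, 1 was higher (Fgfr1, 0.50, adjusted p = 0.00165) with a median of 0.20. At DIV3 under SC the medians of the core, other phosphatase, other inhibitor, responsive and ligand lists were 0.09, 0.11, 0.07, 1.16 and -0.01, against 1.44 for the 9 members. Within the phosphatase list, Dusp14, named after its values were seen, was 1.47 to 2.10 TPM without BDNF and 4.32 to 8.34 TPM with it under SC. Under PXN it was 1.15 to 2.24 and 4.49 to 5.68 TPM. Dusp10 was 1.51 to 1.62 and 2.41 to 3.51 TPM under SC and 1.36 to 1.79 and 2.63 to 3.37 TPM under PXN. All 4 were without overlap, against 10.8% (SC) and 6.69% (PXN) of all genes. Later the ranges of Dusp14 overlapped. Its mean under SC was 3.87 TPM without BDNF and 3.34 with it at DIV5, and 4.88 and 3.79 at DIV10. Under PXN it was 3.48 and 3.80 TPM at DIV5 and 4.56 and 3.42 at DIV10.

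From E15 to DIV10 under SC these lists held calls in both directions, where 22.2% of all genes were higher and 23.6% lower. In the core list 6 rose, including Ntrk2, the TrkB gene (1.96, adjusted p = 0.000145), and Map2k1 (0.94), and 7 fell, including Rps6ka5 (-0.99) and Grb2 (-0.69, adjusted p = 0.00135). Of the other feedback inhibitors 3 rose (Rasal1, Lrig1 and Dok1) and 1 fell (Errfi1, -0.66), and of the other phosphatases 2 rose (Dusp10 and Dusp7) and 1 fell (Dusp1, -1.14). The responsive list had 8 higher and 3 lower, with Egr4 (4.70) and Fos (3.22) as the largest, and the ligand list had 5 higher, with Erbb3 (2.63) and Fgf1 (2.23) as the largest.

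Across the 48 libraries the members varied together, as a description over libraries that share days and treatments. Of 36 pairs of members, 35 had a Pearson r above 0 on the log2(TPM + 1) scale, 12 had an r of at least 0.7, and the median r was 0.62. The highest r was 0.92, between Spry4 and Spred3, and the lowest was -0.06. The genes outside the list with the most similar pattern over the 48 libraries were Etv5 (r = 0.97) and Vgf (0.90) for Spry4, Vgf (0.89) and Trmt9b (0.89) for Spred3, Etv5 (0.88) and Alkal2 (0.82) for Spry2, Arc (0.88) and Pde1a (0.85) for Dusp5, Gramd1b (0.88) and Trmt9b (0.85) for Dusp6, and Shb (0.85) and Ubash3b (0.82) for Dusp4. For Spred2 they were Med14 (0.90) and Rab3c (0.89), for Spred1 Smim15 (0.81) and Ptar1 (0.81), and for Spry1 Bysl (0.80) and Cog1 (0.78). At DIV3 under SC, Etv5, a transcription factor gene of the ETS family, was 11.6 to 16.9 TPM without BDNF and 43.7 to 59.1 TPM with it, and Arc was 4.17 to 6.58 TPM and 80.9 to 272 TPM.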

How the data were processed

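Cortical RNA was sequenced by the authors with paired-end reads (NovaSeq6000), aligned to GRCm38 with STAR 2.7.10 and quantified with RSEM 1.3.3, tools and versions as listed in the submitters' processing notes. The deposited table gives TPM per gene for 48 libraries, without pooling, and every library sums to the same total, so depth and counting error are not known. The table's 48 columns were matched to the labels, and 0 columns belonged to other samples. Levels were set on a log2(TPM + 1) scale, genes averaging 1 TPM or more over the 48 libraries were kept, and 1 limma fit (limma 3.58.1, R 4.3.3) of all 13 groups gave moderated tests with Benjamini-Hochberg adjustment over 14250 genes, called at an adjusted p under 0.05, two-sided. The script was tested on simulated data for the BDNF response at DIV3 under SC, with 200 of 14250 genes changed by a log2 of 1. It recovered 55% of these, and 8.33% of its calls were false, so a change of this size can go uncalled. Python 3.11.15, numpy 2.4.6, pandas 2.3.3 and matplotlib 3.10.9 were used for tables and figures. Promoters and positions came from RefSeq tables of GRCm38.p6.

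Numbers shared between groups in the labels were checked for pairing. In the 20 pairs with and without BDNF, each within 1 day and siRNA, deviations from the group means correlated at 0.185 to 0.868, each above 0.1. Deviations within a group cancel out, so these correlations are not independent. The main fit has no term for the number, so its p-values do not use this pairing. A further fit treated the number as pairing the libraries, as a block, and is given where it changed a call. That block also takes a number as the same across days and siRNAs, which was not checked. Alternatives used 0.1 as the pseudocount, left out the filter on low levels, used median ratio size factors, fitted only the groups compared, added the block or a term for the series of S numbers in the column headings, or left libraries out. For these alternatives the share of all genes called is not given, so their counts of members are not set against other genes. All 9 members enter every comparison, and those not named there are covered by its counts and ranges. From each other list, up to 4 called genes each way with the largest log2 difference in the mean BDNF response and from E15 to DIV10 under SC are named, and for each member the 2 genes of highest Pearson r. Some genes that this rule names are not reported here. The members and lists were chosen with earlier results of these data known.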

Additional observations from a re-analysis of the deposited data

Results flagged for a closer look

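In 3 of 63 groups of 4 to 10 libraries, over the 9 members, 1 library lay far from the others by Dixon's criterion on the log2(TPM + 1) scale, which chance alone gives in about 1 of 20 groups. Dusp5 was 5.61 TPM in the DIV5 SC library with BDNF numbered 1, against 3.13 TPM in the next highest, a gap of 0.850 of the group's range on that log2 scale. Dusp6 was 656 TPM in the DIV3 PXN library with BDNF numbered 1, against 477 TPM in the next highest, a gap of 0.844 of the log2 range. Spred1 was 37.0 TPM in the DIV5 SC library without BDNF numbered 4, against 22.6 TPM in the next highest, a gap of 0.857 of the log2 range. The cause was not tested.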

How the results depend on the processing

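Of 23 called differences of members, 0 reversed in 170 alternative fits and 0 in 476 fits that left out 1 library, and 19 and 22 of these fits lost the call. The counts that follow come without the share of all genes called under the same setting. They show how the calls of members moved and not whether other genes moved alike. The replicate block, on the numbers in the labels, called 7 members in the BDNF response at DIV3 under SC against 4, 1 against 0 at DIV10 under PXN, 2 from DIV5 to DIV10, 1 between siRNAs at DIV5 without BDNF and 1 with it, and 1 in the change of the response from DIV3 to DIV5 under PXN and to DIV10 under SC and PXN. It changed no other count by more than 1.5 times, and no block could be fitted with E15. A term for the series of S numbers called 7 at DIV3 under SC, 1 from E15 to DIV3, 1 from DIV5 to DIV10, 2 and 1 between siRNAs at DIV5 without and with BDNF, 1 at DIV10, and 1 in the change from DIV3 to DIV5 under PXN. Without the libraries numbered 10 and 11, 2 were called at DIV3 under PXN, 7 from E15 to DIV10 under PXN, and 4 between siRNAs at DIV10. With no filter, 1 was called at DIV10 under PXN and 0 from DIV3 to DIV5. Size factors left 1 call from E15 to DIV10 under PXN. Fitting only the groups compared gave 0 from E15 to DIV10 under SC, 1 under PXN, 2 from E15 to DIV3, 0 from DIV3 to DIV5, and 2 in the change from DIV3 to DIV5 under PXN, with fewer libraries to estimate the spread. Leaving out 4 libraries of DIV10, a choice made after seeing the data, gave 1 from E15 to DIV10 under PXN, 2 from DIV5 to DIV10, and 1 in the change from DIV3 to DIV10 under SC. Leaving out both SC libraries numbered 3 at DIV5, also chosen after seeing the data, gave 2 from DIV3 to DIV5, 2 from DIV5 to DIV10, and 2 and 1 between siRNAs at DIV5 without and with BDNF. The cause of the other shifts was not tested.

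Leaving out 1 library at a time, the BDNF response called 1 to 4 members at DIV3 under SC, 5 to 6 under PXN, 0 to 3 at DIV10 under PXN and 8 to 8 in the mean of the 6 pairs. The range was 0 to 2 from E15 to DIV10 under SC, 1 to 3 under PXN, 0 to 2 from DIV3 to DIV5, 0 to 1 from DIV5 to DIV10, 0 to 2 between siRNAs at DIV5, 0 to 1 at DIV10, 0 to 1 at DIV5 with BDNF, 0 to 1 in the change from DIV3 to DIV5 under PXN and 0 to 1 in that to DIV10 under SC, and 0 to 0 elsewhere. Without the libraries numbered 10 and 11, no value exists for comparisons that use the DIV10 PXN libraries with BDNF. The table holds no counts, so counting error at low levels, as for Dusp5, could not be given.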
